A study of Mus musculus with 2 samples.

Results

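The integrins of splenic dendritic cells (DC) were examined as 10 genes, Itgax, Itgam, Itgal, Itgb2, Itgae, Itgb7, Itga4, Itgb1, Itgav and Itgb8, chosen by their symbols among the 32285 genes counted, and all 10 were found. Unique molecular identifiers (UMIs), each standing for 1 captured transcript molecule, were summed over classes of cells gated on marker genes in 2 single-cell libraries of 3′ transcripts. One library was WT (H2-Aa +/+) with 7814 cells, and the other was H2-Aa cit/cit, homozygous for a mutation (citation) in the alpha chain gene of the MHC-II molecule I-A, with 11525 cells. Each pooled the spleens of 3 naive female mice aged 4 months, and the cells had been sorted as live, CD45.2+ and CD11c+. There was 1 library per genotype, so no difference between the genotypes could be tested: the 95% intervals below cover counting error only, and cells of a library are not replicates of a mouse.

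An integrin is a pair of an alpha and a beta chain that spans the membrane, binds ligands on other cells or in the matrix, and links them to the actin cytoskeleton. The beta2 chain CD18 (Itgb2) pairs with CD11a (Itgal), CD11b (Itgam) and CD11c (Itgax) into the leukocyte integrins LFA-1, Mac-1 and p150,95. CD103 (Itgae) pairs with the beta7 chain (Itgb7) and binds E-cadherin, alpha4 (Itga4) pairs with beta1 (Itgb1) or beta7, and alphaV (Itgav) pairs with beta8 (Itgb8) into a receptor that frees latent TGF-beta. CD11b marks type 2 conventional DC (cDC2) and CD103 marks many type 1 conventional DC (cDC1), so integrins are among the most used surface labels of DC subsets.

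Cells were assigned by how many genes of a marker list had a UMI, and no integrin was among the markers. Resting cDC1-like cells (514 WT, 623 H2-Aa cit/cit) had at least 5 of 11 cDC1 genes, with a median of 8 and 10. Proliferating cDC1-like cells (73 and 81) had in addition at least 4 of 9 cell cycle genes. The cDC2-like classes were ESAM-high (1614 and 4118), Ccr2+ (207 and 574) and other (394 and 1074), beside proliferating cells without the cDC1 genes (207 and 488). Low-ribosomal cells (2025 and 2591) had under 8% of their UMIs from ribosomal protein genes and were set aside after all gates but the cDC2-like ones, which many of them would pass: their median cell had 2 of 6 cDC2 genes in both libraries. Mature cells without cDC1 genes (1940 and 1267, called mature cells below) had at least 4 of 9 genes of the Ccr7 program. The remaining classes were pDC-like (95 and 90, plasmacytoid), Ace+ monocyte-like (119 and 141) and macrophage-like (166 and 101). These 11 classes had at least 50 cells in each library; mature cells with cDC1 genes (52 and 18), NK- or T-like cells (33 and 26), neutrophil-lineage-like cells (2 and 13) and 373 and 320 unassigned cells were not compared. The gates are ranges of a count and not types: 101 cells of WT against 50 for H2-Aa cit/cit had just 5 cDC1 genes and 120 and 122 had 4, while 291 and 246 had just 4 mature genes and 425 and 305 had 3. The median resting cDC1-like cell had at most 1 gene of the cDC2, ESAM-high, mature, macrophage and Ace+ lists, and at most 2 of the Ccr2+ list.

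The H2-Aa cit/cit library held 72652201 UMIs against 51020804 of WT, with medians per cell of 5633 and 5492. H2-Aa itself, the mutated gene, stood at 5410 and 66.2 UMIs per 1000000 UMIs (CPM). The libraries shared 31 cell barcodes. Depth differed within some classes: the median resting cDC1-like cell had 9436 UMIs in the WT library against 14437 in the other, and the median other cDC2-like cell 3106 and 5692.5. Markers of 2 lineages met in 34 cells of WT against 18 for H2-Aa cit/cit, against 488 and 1063 doublets that a rate of 0.8% per 1000 cells would give for the cells in the files. CD11c was used for the sort, so Itgax could check the label only in part: it had a UMI in 56.3% of WT cells against 62.5% of H2-Aa cit/cit cells, or 25.8% and 28.3% once each cell was thinned to 1500 UMIs.

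**Figure D1:**
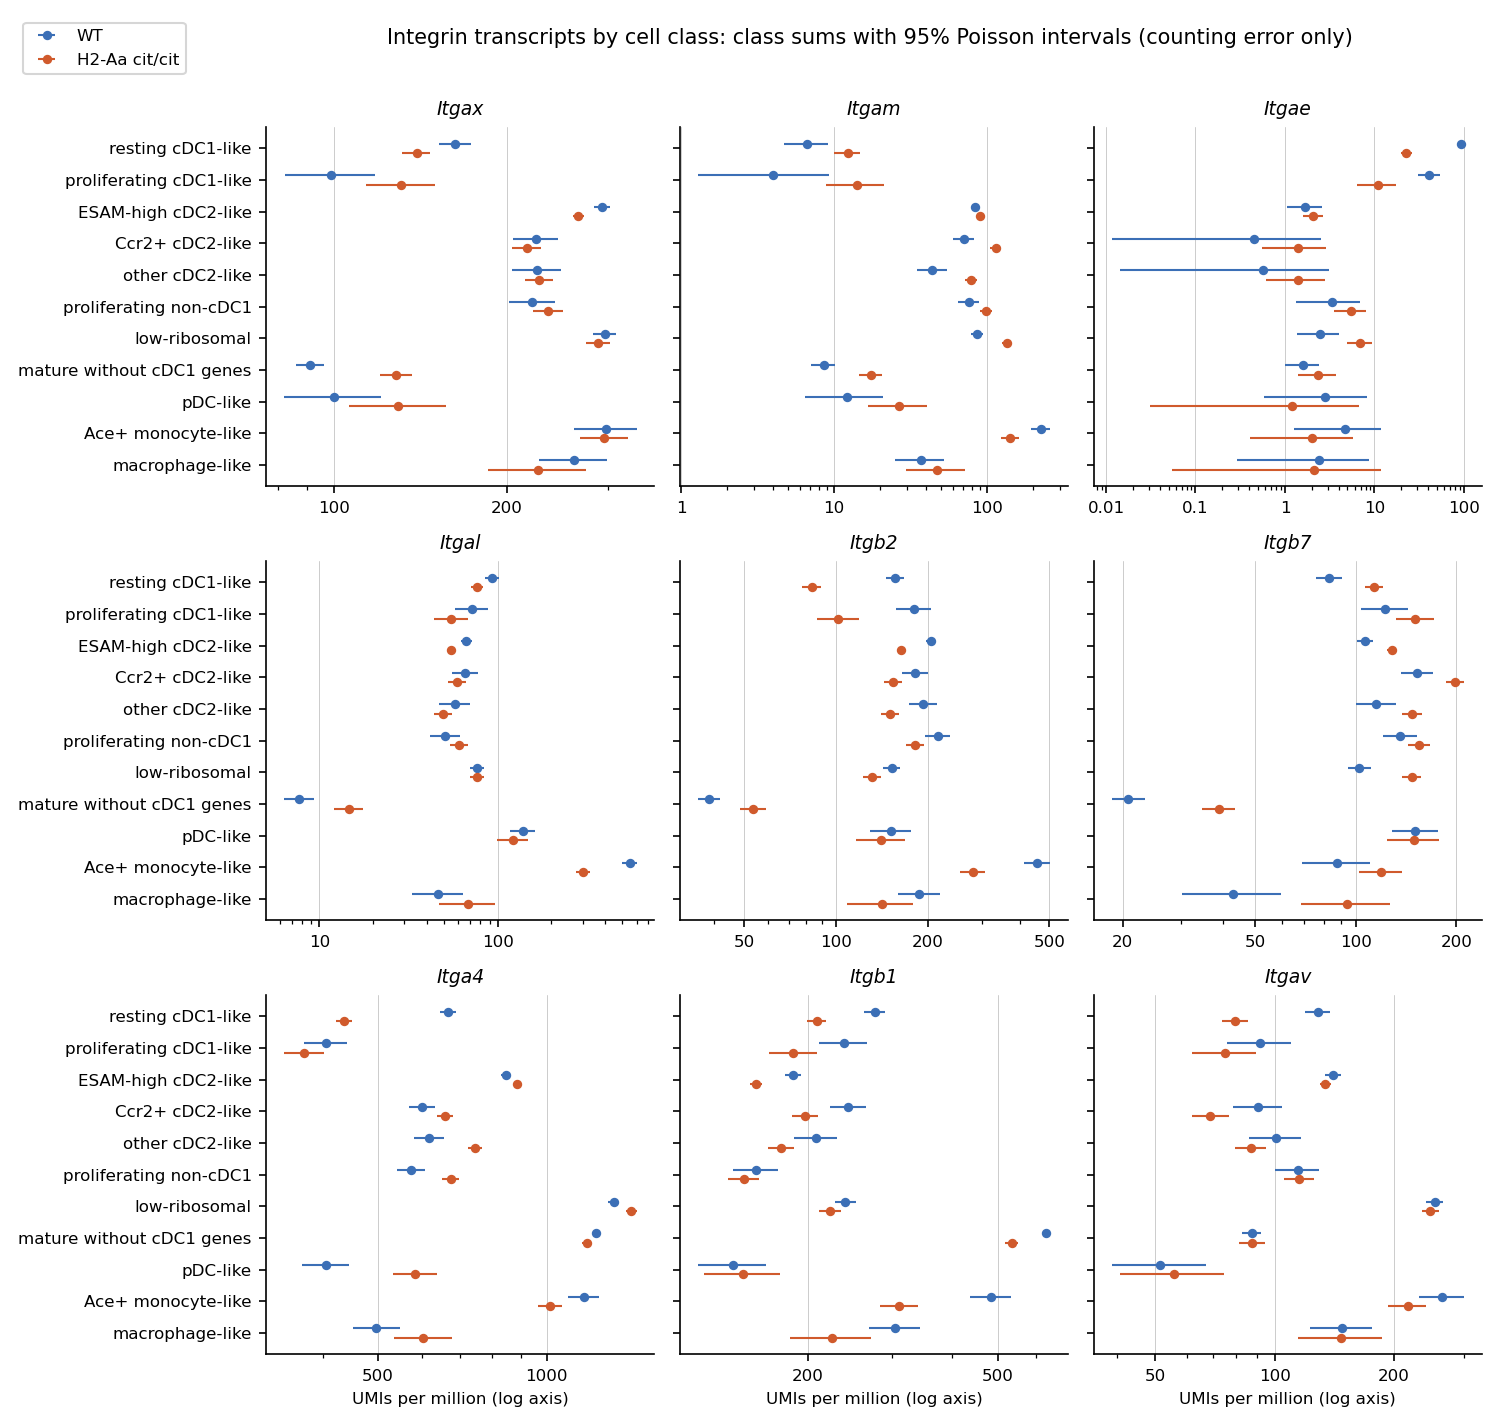
Level of 9 integrin genes (CPM of the class sum, log axis, 1 panel a gene) in 11 cell classes of the WT (blue) and H2-Aa cit/cit (orange) libraries; points are class sums and lines 95% Poisson intervals, which cover counting error only. Itgae stands at 92.5 and 22.7 in resting cDC1-like cells, and the mature cells are at the low end for Itgal, Itgb2 and Itgb7 but at the high end for Itgb1; Itgb8, at 0 in most classes, is not drawn.

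Levels are given in CPM of a class. They count molecules at the 3′ end, so they were compared between classes for 1 gene and not between genes.

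Itgax, the alpha chain of CD11c (chromosome 7, 128129547 to 128150657, plus strand, ENSMUSG00000030789; all positions GRCm38, GENCODE vM21), had its highest level in Ace+ monocyte-like cells, 297 CPM in WT against 295 in H2-Aa cit/cit. The low-ribosomal cells (296 and 288) and ESAM-high cDC2-like cells (292 and 266) came next, and the intervals of these 3 classes overlapped in WT. Resting cDC1-like cells had 162 and 139 CPM. The lowest class was the mature one, with 91.0 CPM in WT against 128 in H2-Aa cit/cit, whose intervals overlapped those of pDC-like (100 and 130) and proliferating cDC1-like cells (99.1 and 131). The range from highest to lowest class was 3.26-fold in WT and 2.30-fold in H2-Aa cit/cit.

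Itgam (ENSMUSG00000030786, chromosome 7, 128062640 to 128118491, plus strand) encodes CD11b and was lower in cDC1-like than in cDC2-like cells of both libraries. Ace+ monocyte-like cells had 224 CPM in WT against 141 in H2-Aa cit/cit. ESAM-high, Ccr2+ and other cDC2-like cells had 83.7, 70.2 and 43.8 CPM in WT, against 90.3, 114 and 78.3 in H2-Aa cit/cit. Resting cDC1-like cells had 6.68 and 12.2 CPM, from 38 and 109 UMIs, and mature cells 8.53 and 17.5. Within WT, Itgam was 12.5-fold lower in resting cDC1-like than in ESAM-high cells, and within H2-Aa cit/cit 7.38-fold lower. Thinned to 1500 UMIs, 10.6% of ESAM-high cells of WT, against 11.8% for H2-Aa cit/cit, had an Itgam UMI, against 0.763% and 1.41% of resting cDC1-like cells, a class that should lack CD11b.

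Itgal (ENSMUSG00000030830, chromosome 7, 127296260 to 127335138, plus strand), the CD11a chain of LFA-1, stood at 548 CPM in Ace+ monocyte-like cells of WT and 302 for H2-Aa cit/cit. The pDC-like cells were next in both libraries, with 138 and 122 CPM. Of the other classes, 8 lay between 46.5 and 92.8 CPM in WT, and between 49.3 and 76.9 in H2-Aa cit/cit, and most neighbours in this order overlapped in their intervals. Mature cells stood below all of them, with 7.70 and 14.6 CPM.

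Itgb2 (ENSMUSG00000000290, chromosome 10, 77530252 to 77565708, plus strand), the beta2 chain that these 3 alpha chains share, followed Itgal at both ends of the order. Ace+ monocyte-like cells had 456 and 280 CPM and mature cells 38.4 and 53.7. In WT the other 9 classes lay between 152 and 215 CPM, and each overlapped its neighbour in the order. In H2-Aa cit/cit the cDC1-like classes left that range: resting cDC1-like cells had 83.3 CPM and proliferating cDC1-like cells 102, under the 131 of the low-ribosomal class, which was the next above them.

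Itgal, Itgam and Itgax lie on chromosome 7 in that order, with Itgad next after Itgax. Promoter sequence from RefSeq (GRCm38.p6) was matched for 7 of the 10 members; Itgae, Itgal and Itgb2 had no entry. Shown are 150 bases before and 50 bases after the start for Itgam and Itgax, neighbours whose levels went together over the classes, and for Itgb7, which with Itgam was higher in H2-Aa cit/cit in most classes. Capitals mark GAGGAA or, on the opposite strand, TTCCTC, the purine-rich core that PU.1, a transcription factor of myeloid cells, is known to recognise.
Itgam, chr7:128062490-128062689, plus strand: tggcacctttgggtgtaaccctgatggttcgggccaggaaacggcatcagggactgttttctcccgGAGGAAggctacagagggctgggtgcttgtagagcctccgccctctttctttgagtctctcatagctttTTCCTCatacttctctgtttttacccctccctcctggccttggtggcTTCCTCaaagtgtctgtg
Itgax, chr7:128129400-128129599, plus strand: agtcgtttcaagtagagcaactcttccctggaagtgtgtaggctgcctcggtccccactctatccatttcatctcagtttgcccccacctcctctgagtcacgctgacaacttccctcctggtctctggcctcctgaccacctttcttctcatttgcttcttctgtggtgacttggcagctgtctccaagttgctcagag
Itgb7, chr15:102231886-102232085, minus strand: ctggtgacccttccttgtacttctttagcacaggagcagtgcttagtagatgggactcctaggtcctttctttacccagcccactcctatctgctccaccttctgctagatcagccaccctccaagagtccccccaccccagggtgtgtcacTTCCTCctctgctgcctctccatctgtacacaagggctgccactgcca
The Itgam window held 3 matches, the Itgb7 window 1 and the Itgax window none. Of the 7 members matched, 4 held a match (Itgam, Itgb7, Itgb1 and Itgav), and of all 32851 promoter windows of this length 6582 did. A match of 6 letters is a description of the sequence and not a binding site.

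Itgae (ENSMUSG00000005947, chromosome 11, 73090583 to 73147446, plus strand) encodes CD103 and had its highest levels in the cDC1-like classes of both libraries. Resting cDC1-like cells had 92.5 CPM in WT against 22.7 in H2-Aa cit/cit, from 526 and 202 UMIs. Proliferating cDC1-like cells had 41.2 and 10.9 CPM, from 52 and 17 UMIs. The other 9 classes lay between 0.456 and 4.68 CPM in WT, and between 1.21 and 6.91 in H2-Aa cit/cit, the last in low-ribosomal cells, whose interval overlapped that of proliferating cDC1-like cells. Mature cells that carried at least 5 cDC1 genes, too few for the comparison, had 23.8 CPM in WT (22 UMIs) against 11.6 CPM in H2-Aa cit/cit (5 UMIs). Haspin overlaps Itgae on the opposite strand, with 357 and 583 UMIs in all, as Cerkl does Itga4 and Gm13684 does Itgav, and how strand was counted is not given in the sources used here.

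Itgb7 (ENSMUSG00000001281, chromosome 15, 102215995 to 102231944, minus strand), the partner of CD103 and of alpha4, did not follow Itgae over the classes (Pearson r 0.02 over the 22 class sums of both libraries). Its highest class was Ccr2+ cDC2-like in both libraries, with 153 and 198 CPM, and in WT the next 8 classes ran down to 83.3 CPM with each neighbour overlapping. Macrophage-like cells had 42.9 and 94.0 CPM, and mature cells again stood lowest, with 20.8 and 38.8. Resting cDC1-like cells, where Itgae was found, had 83.3 CPM in WT against 113 in H2-Aa cit/cit.

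Itga4 (ENSMUSG00000027009, chromosome 2, 79255426 to 79333123, plus strand), the alpha4 chain of VLA-4 and of the gut-homing integrin, was highest in low-ribosomal cells at 1316 and 1416 CPM. Mature cells (1224 and 1178) and Ace+ monocyte-like cells (1164 and 1015) came next. ESAM-high cDC2-like cells had 846 and 886 CPM and resting cDC1-like cells 668 and 435. Low-ribosomal cells were thus 1.55-fold above ESAM-high cells in WT and 1.60-fold in H2-Aa cit/cit. Many genes were higher in that class, and 34.5% and 32.6% of all genes compared were at least as far above as Itga4. Proliferating cDC1-like cells were at the lower end in both libraries, with 404 and 370.

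Itgb1 (ENSMUSG00000025809, chromosome 8, 128685654 to 128733200, plus strand), the beta1 chain of many matrix and cell receptors, was highest where the beta2 and beta7 chains were lowest, in mature cells. Mature cells had 630 CPM in WT against 534 in H2-Aa cit/cit, and Ace+ monocyte-like cells were next with 483 and 311. ESAM-high cells had 186 and 156, and pDC-like cells were lowest with 139 and 147. Over the 22 class sums Itgb1 and Itgb7 had a Pearson r of -0.82, which describes these sums only, since sums of 1 library share its depth.

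Itgav (ENSMUSG00000027087, chromosome 2, 83724397 to 83806916, plus strand) was highest in Ace+ monocyte-like (264 and 217 CPM) and low-ribosomal cells (254 and 247), whose intervals overlapped in both libraries. ESAM-high cells had 141 and 134 and pDC-like cells 51.4 and 55.7, the lowest. Itgb8 (ENSMUSG00000025321, chromosome 12, 119158022 to 119238802, minus strand), the beta8 chain, was found as 75 UMIs in 38 WT cells and 27 UMIs in 14 H2-Aa cit/cit cells, with at most 6 in a cell in either library. Of these UMIs, 92.0% and 81.5% lay in mature cells, with or without cDC1 genes, which made up 25.5% and 11.1% of all cells. The mature class had 4.72 and 2.87 CPM, and 3 of the other H2-Aa cit/cit UMIs lay in NK- or T-like cells. Resting cDC1-like cells had no Itgb8 UMI, and a floor of 3 UMIs per class sum allows up to 0.527 CPM in WT against 0.337 in H2-Aa cit/cit.

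**Figure D2:**
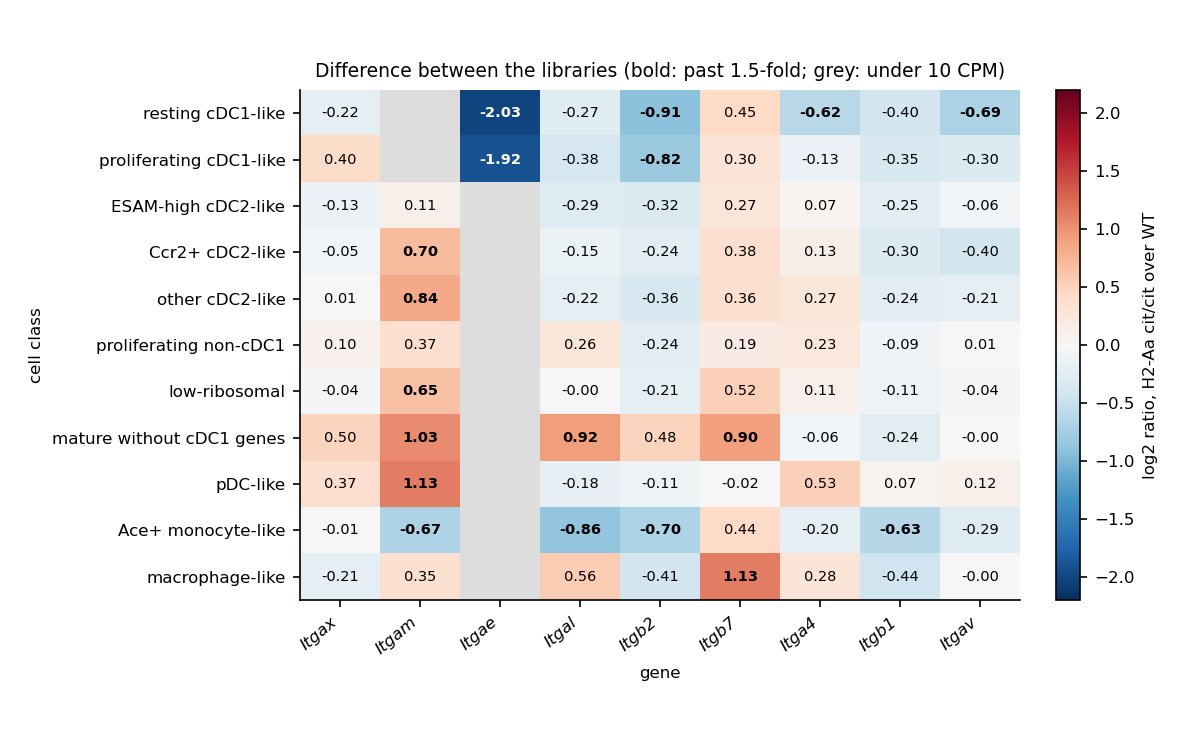
Log2 ratio of H2-Aa cit/cit over WT for 9 integrin genes (columns) in 11 cell classes (rows), with red for higher and blue for lower in H2-Aa cit/cit; bold values are past 1.5-fold, and grey cells are gene and class pairs with a mean under 10 CPM. Itgae is the deepest blue at -2.03 and -1.92, Itgam is red in all classes shown but the Ace+ monocyte-like one, and Itgb2 is blue in all but the mature one.

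The question between the genotypes was whether the class sums of a member differed between the H2-Aa cit/cit and the WT library. Members with a mean of at least 10 CPM in a class were compared, 8 of 10 in each class, and the share of all genes past the same 1.5-fold in that class is given as background.

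In resting cDC1-like cells 4 of 8 members were past 1.5-fold, all lower in H2-Aa cit/cit, where 16.4% of all 7796 genes compared were past it in either direction. Itgae went from 92.5 to 22.7 CPM (log2 ratio -2.03, interval -2.27 to -1.79), Itgb2 from 156 to 83.3 (-0.91, -1.05 to -0.77), Itgav from 128 to 79.4 (-0.69, -0.84 to -0.54) and Itga4 from 668 to 435 (-0.62, -0.68 to -0.55). Itgal (-0.27), Itgb1 (-0.40) and Itgax (-0.22) were lower by less, and Itgb7 was higher (0.45). The median over the 8 members was -0.51 against -0.01 over all genes compared. With each cell weighed alike, Itga4 (-0.55) and Itgav (-0.53) no longer passed 1.5-fold. The summed mature DC list stood at 488 CPM for WT, against 57.1 for H2-Aa cit/cit, in this class; its part in these values was not tested.

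Proliferating cDC1-like cells had 2 of 8 members past 1.5-fold, against 17.2% of all genes compared. These were Itgae, from 41.2 to 10.9 CPM (-1.92, -2.81 to -1.11), and Itgb2, from 180 to 102 (-0.82, -1.13 to -0.53), so both members were lower in H2-Aa cit/cit in both cDC1-like classes. Marker lists of other cells differed here as well, with the mature DC genes at 209 and 43.4 CPM, the cDC2 genes at 121 and 261 and the Ccr2+ genes at 255 and 476, and their part was not tested. The Itgae value here rested on few UMIs: in cells of 3000 to 15000 UMIs, 10 WT and 9 H2-Aa cit/cit UMIs remained and the log2 ratio was 0.10.

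The ESAM-high cDC2-like class, the deepest sum over both libraries, had no member past 1.5-fold, against 3.58% of all genes compared. Its log2 ratios ran from -0.32 for Itgb2 (204 to 163 CPM) to 0.27 for Itgb7 (106 to 128 CPM), and Itgam was near equal at 0.11 (interval 0.01 to 0.21). Proliferating cells without cDC1 genes likewise had none, against 6.92%, and there Itgam had the widest ratio, 0.37, from 75.9 to 98.4 CPM.

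Itgam was the only member past 1.5-fold in 4 classes, higher in H2-Aa cit/cit in each. In Ccr2+ cDC2-like cells it went from 70.2 to 114 CPM (0.70, 0.44 to 0.96), with 7.17% of genes past the fold. Other cDC2-like cells had 43.8 and 78.3 CPM (0.84, 0.49 to 1.20), with 8.65%. Low-ribosomal cells had 86.1 and 135 CPM (0.65, 0.49 to 0.81), with 5.62%. In pDC-like cells the values were 12.2 and 26.6 CPM (1.13, 0.08 to 2.24), from 13 and 22 UMIs, with 17.8%. The value for other cDC2-like cells turned to -0.19 where clusters named from the same markers replaced the gates, whereas the low-ribosomal value stayed between 0.60 and 0.69 under 8 alternatives. The summed neutrophil list, of a cell type that carries CD11b, stood at 459 CPM for WT against 90.7 for H2-Aa cit/cit in low-ribosomal cells, but was higher in H2-Aa cit/cit in the other 3 classes: 1.12 and 45.0 CPM in other cDC2-like, 0.912 and 9.33 in Ccr2+ cDC2-like and 1.87 and 10.9 in pDC-like cells. Its part in the Itgam values was not tested.

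In mature cells, where 11.9% of all genes compared were past 1.5-fold, 3 of the 8 members compared were past it, all higher in H2-Aa cit/cit. Itgb7 went from 20.8 to 38.8 CPM (0.90, 0.66 to 1.14). Itgam went from 8.53 to 17.5 (1.03, 0.67 to 1.40) and Itgal from 7.70 to 14.6 (0.92, 0.53 to 1.31), but both reached a mean of 10 CPM only through the H2-Aa cit/cit library, so the count itself is no result. The values differed with the number of cDC1 genes in the cell. In mature cells with none of them (991 WT, 859 H2-Aa cit/cit), Itgb7 had 17.5 and 25.3 CPM, Itgal 6.55 and 9.51, Itgam 6.05 and 9.96, Itgax 98.8 and 110, and Itgb2 38.8 and 35.5. With 1 to 2 of them (848 and 387 cells), Itgb7 had 24.1 and 48.9 CPM and Itgb2 38.8 and 67.6, so the libraries lay further apart. With 3 to 4 (101 and 21 cells), Itgb2 had 34.7 and 149 CPM. Depth rose as well: cells with 0, 1 to 2 and 3 to 4 cDC1 genes had means of 6004, 8320 and 13980 UMIs in WT. In H2-Aa cit/cit the means were 5144, 7298 and 20441. Depth and the number of cDC1 genes cannot be told apart here. The summed marker lists of this class differed too. The mature DC genes went from 5798 to 4625 CPM, the cDC2 genes from 298 to 491 and the ESAM-high genes from 402 to 582. The median share of UMIs from ribosomal protein genes was 8.12% in WT against 10.7% in H2-Aa cit/cit. The part of these differences was not tested. Without likely doublets the log2 ratios were 0.66 for Itgam, 0.34 for Itgal and 0.48 for Itgb7, and no member that still had 10 CPM was past 1.5-fold.

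The Ace+ monocyte-like cells had 4 of 8 members past 1.5-fold, all lower in H2-Aa cit/cit, against 23.8% of all genes compared. Itgal went from 548 to 302 CPM (-0.86, -1.05 to -0.67), Itgb2 from 456 to 280 (-0.70, -0.90 to -0.50), Itgam from 224 to 141 (-0.67, -0.96 to -0.38) and Itgb1 from 483 to 311 (-0.63, -0.83 to -0.44). The median over the 8 members was -0.46 against -0.02 over all genes compared. The gate's own 8 genes stood at 4447 and 2250 CPM and the ESAM-high genes at 281 and 639, and their part was not tested. None of the 4 was past 1.5-fold with each cell weighed alike, without likely doublets or in clusters, where Itgam was 307 and 323 CPM. In macrophage-like cells Itgb7 alone was past it, from 42.9 to 94.0 CPM (1.13, 0.46 to 1.81, 36 and 44 UMIs), against 28.5% of all genes compared.

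Direction over the classes differed by member. Itgb7 was higher in H2-Aa cit/cit in 10 of 11 classes, all but the pDC-like one (-0.02), and Itgam in 10, all but the Ace+ monocyte-like one, with a mean under 10 CPM in both cDC1-like classes. Itgb2 was lower in 10 classes, all but the mature one, Itgb1 in 10, all but the pDC-like one (0.07), and Itgav in 9, with an interval that held 0 in 6 of them. In the classes so counted, the interval also held 0 for Itgb7 and Itgb1 in proliferating cells without cDC1 genes. It did so for Itgam in macrophage-like cells, and for Itgb2 in pDC-like and macrophage-like cells. Itgax was higher in 5 and lower in 6, with log2 ratios between -0.22 and 0.50. Itgal was higher in 3 and lower in 8, and Itga4 higher in 7 and lower in 4. Itgae was higher in 6 and lower in 5, but reached a mean of 10 CPM in 2 classes only, the cDC1-like ones. Under that mean, low-ribosomal cells had 2.46 CPM of Itgae in WT against 6.91 in H2-Aa cit/cit. There the log2 ratio was 1.49 (0.61 to 2.44), from 15 and 43 UMIs. No member compared in all 11 classes went 1 way in all of them, which 3.44% (higher) and 0.823% (lower) of the 6317 genes compared in every class did. The share of all genes that went 1 way in 10 of 11 classes was not counted, so the directions above have no background and are a description.

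**Figure D3:**
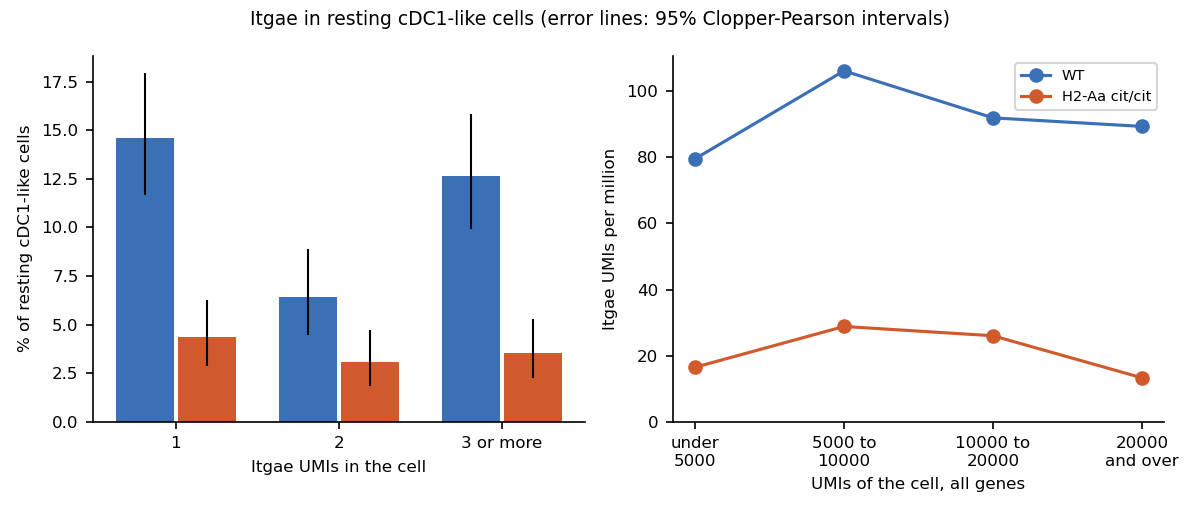
Itgae in resting cDC1-like cells of the WT (blue, 514 cells) and H2-Aa cit/cit (orange, 623 cells) libraries. Left, the percent of cells with 1, 2, or 3 or more Itgae UMIs, with 95% Clopper-Pearson intervals; right, Itgae CPM by depth of the cell. H2-Aa cit/cit lies below WT in all 3 bars and at all 4 depths.

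For Itgae, fewer resting cDC1-like cells of H2-Aa cit/cit had a UMI, and those that did had about as many before scaling for depth. A UMI was found in 173 of 514 WT cells (33.7%, 29.6 to 37.9) as against 68 of 623 H2-Aa cit/cit cells (10.9%, 8.58 to 13.6), although the latter cells were deeper. Cells with a UMI held 3.04 of them on average in WT against 2.97 in H2-Aa cit/cit, with a highest count of 19 in both. Thinned to 1500 UMIs the shares were 11.1% (8.59 to 14.3) and 2.86% (1.73 to 4.54), against 0.284% and 0.279% of ESAM-high cells, which should lack CD103 and whose median depths were 7955.5 and 6684 UMIs. By depth of the cell, WT had 79.6, 106, 92.0 and 89.4 CPM in cells under 5000, of 5000 to 10000, of 10000 to 20000 and of at least 20000 UMIs. The same bins held 16.5, 28.8, 26.0 and 13.3 CPM in H2-Aa cit/cit.

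The cells with and without Itgae were then set side by side among resting cDC1-like cells of 10000 to 20000 UMIs. The beta7 partner was not higher in cells with Itgae: Itgb7 had 81.9 CPM with and 120 without it in WT, and 108 and 115 in H2-Aa cit/cit. Cadm1, an adhesion molecule of cDC1, had 1761 and 1041 CPM in WT and 1546 and 567 in H2-Aa cit/cit. Most genes of the cDC1 gate were, like Cadm1, higher in cells with Itgae in both libraries, but not all. In WT the exceptions were Cd24a, with 141 CPM with and 152 without Itgae, and Rab7b, with 330 and 331. In H2-Aa cit/cit they were Cd24a (164 and 181), Snx22 (105 and 120) and Ifi205 (178 and 191), while Rab7b had 369 and 313. Itgb2 had 174 and 154 CPM in WT and 112 and 74.8 in H2-Aa cit/cit, so it was lower in the latter library in both kinds of cell.

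**Figure D4:**
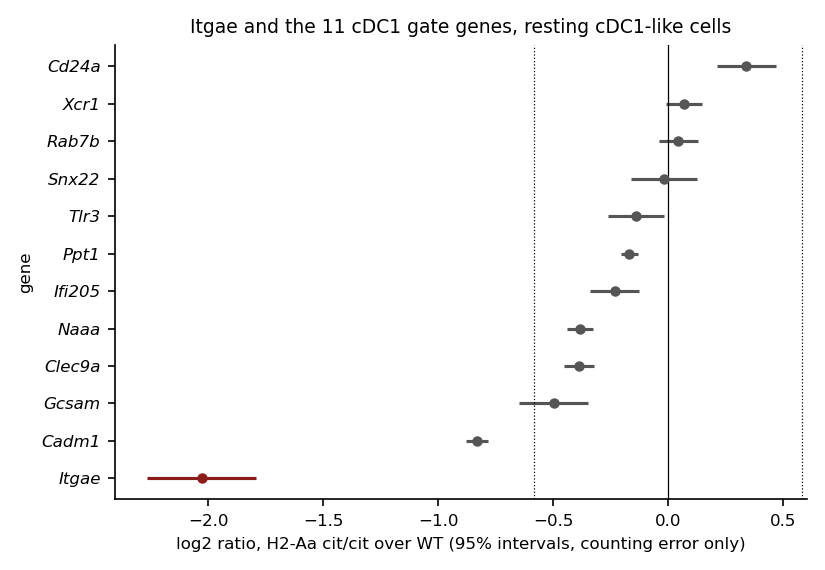
Log2 ratio of H2-Aa cit/cit over WT in resting cDC1-like cells for Itgae (dark red) and the 11 genes of the cDC1 gate (grey), with 95% intervals for counting error; dotted lines mark 1.5-fold. Itgae lies at -2.03, Cadm1 at -0.83 and the other 10 gate genes between -0.50 and 0.34.

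The 11 genes that gated the cDC1 did not share the size of the Itgae difference. Xcr1, the chemokine receptor that defines cDC1, stood at 365 and 382 CPM (log2 ratio 0.07), Clec9a, a receptor for dead cells, at 587 and 449 (-0.39), and Rab7b at 314 and 324 (0.04). Cadm1 was the only gate gene past 1.5-fold, from 1311 to 737 CPM (-0.83, -0.88 to -0.78). Since these genes chose the cells, their values describe the class and test nothing.

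**Figure D5:**
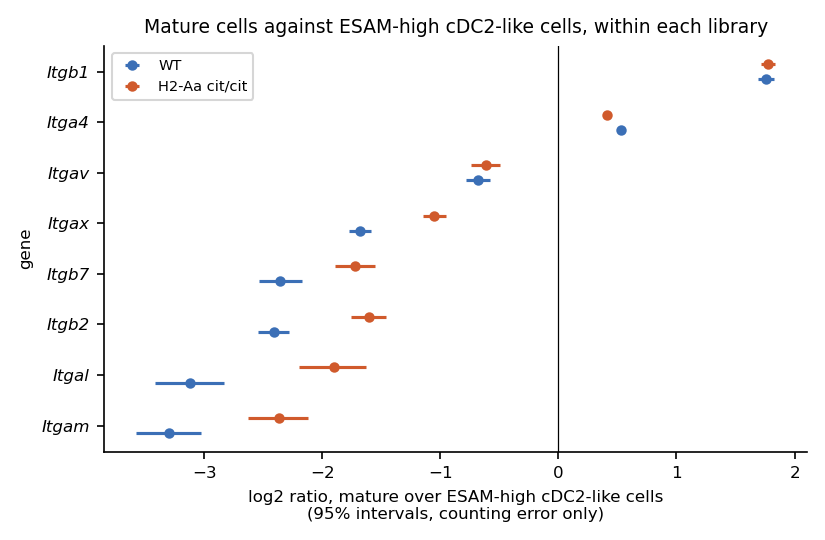
Log2 ratio of mature over ESAM-high cDC2-like cells for 8 integrin genes, within the WT (blue) and the H2-Aa cit/cit (orange) library, with 95% intervals for counting error. Itgam, Itgal, Itgb2, Itgb7, Itgax and Itgav lie below 0 and Itga4 and Itgb1 above it in both libraries.

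Set against ESAM-high cDC2-like cells of the same library, mature cells had less of the beta2 and beta7 integrins and more of beta1 in both libraries. Itgam was 9.81-fold lower in WT against 5.17-fold lower in H2-Aa cit/cit, Itgal 8.67-fold and 3.74-fold, Itgb2 5.32-fold and 3.04-fold, Itgb7 5.11-fold and 3.30-fold, and Itgax 3.21-fold and 2.07-fold. Itgav was 1.60-fold and 1.53-fold lower. Itgb1 was 3.38-fold higher in WT against 3.42-fold higher in H2-Aa cit/cit, and Itga4 1.45-fold and 1.33-fold. Mature cells also had fewer UMIs from ribosomal protein genes. Their median shares were 8.12% and 10.7%, against 17.0% and 19.2% in ESAM-high cells. Against the same ESAM-high cells, low-ribosomal cells had Itga4 1.55-fold and 1.60-fold higher and Itgb1 1.29-fold and 1.42-fold higher. Itgb2 was 1.34-fold and 1.24-fold lower there, and Itgam 1.03-fold and 1.49-fold higher. The part of the ribosomal share in the mature values was not tested. Of all genes compared, 30.5% in WT against 22.1% in H2-Aa cit/cit were past 1.5-fold lower in mature cells, and 18.9% and 16.4% past it higher. The Itgam value was among the lowest 0.168% and 0.0717% of genes, and that of Itgb1 among the highest 6.48% and 5.13%. All 6 directions below 0 were the same under 7 alternatives. The shares of cells went the same way: thinned to 1500 UMIs, 55.3% of mature cells of WT, against 53.4% for H2-Aa cit/cit, had an Itgb1 UMI, against 22.6% and 20.2% of ESAM-high cells.

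The 2 chains of an integrin were also counted in the same cell, after thinning to 1500 UMIs. In classes with at least 20 such cells, the share with both Itgal and Itgb2 was 1.07 to 1.27 times the product of their single shares, and the share with both Itgam and Itgb2 1.08 to 1.23 times. For Itgax with Itgb2 the range was 0.994 to 1.09, for Itgav with Itgb1 0.998 to 1.30, for Itga4 with Itgb1 0.989 to 1.15 and for Itga4 with Itgb7 0.970 to 1.15. The ranges for pairs with Itgb2 leave out mature cells, which had fewer than 20 such cells. Thinned to 3000 UMIs, mature cells passed that number for Itgax with Itgb2, at 1.52 (WT) and 1.54 (H2-Aa cit/cit) times the product. Other classes that passed it at this depth had 0.986 to 1.08 times. Mature cells stayed under it for Itgam and Itgal with Itgb2. Itgae with Itgb7 and Itgav with Itgb8 were together in fewer than 20 cells of every class, so they are not given. Values near 1 mean that both chains were found together about as often as the product of their shares.

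Among 6127 genes with at least 50 CPM in a class sum, those whose levels were most like each member's over the 22 sums are given as a description. Itgax went with Lpcat2 (Pearson r 0.96 of log2 CPM with 5 added), Il6ra and Lcp2, and Itgam with Gcnt2 (0.97), Gm9733 and Sirpb1b. Itgal went with Klf2 (0.86) and Tln1, and Itgb2 with Csk (0.93), Tln1 and Bin2, so talin, which links integrins to actin, was near both chains of LFA-1. Itgae went with Plce1 (0.91), Dbn1 and Farp2, and Itgb7 with Abcf1 (0.90), Map4k1 and Ssr1. Itga4 went with Ncoa3 (0.92), Cmip and Herc4, and Itgb1 with Pim1 (0.89), Klf6 and Fas. Itgav went with Camk2d (0.95), Actr2 and Slc12a2, and Itgb8, at no more than 4.72 CPM, with Fas (0.89), Ostf1 and Htra2. Among the members, Itgam and Itgax had an r of 0.89 and Itgal and Itgb2 of 0.80.

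Of the 12 other alpha and 4 other beta chains, at most 6 and 2 reached 10 CPM in a class. In Ace+ monocyte-like cells, with 23.8% of all genes past 1.5-fold, 3 of 4 alpha chains and 1 of 2 beta chains were past it lower in H2-Aa cit/cit. In macrophage-like cells, with 28.5%, 2 of 6 alpha chains were past it higher and 2 lower. In other cDC2-like cells (8.65%) 2 of 3 alpha chains were lower, and in Ccr2+ cells (7.17%) 1 of 2 was higher and 1 lower. Proliferating cDC1-like cells (17.2%) had 1 of 4 alpha chains higher, and pDC-like cells (17.8%) 1 of 1 beta chain lower. The widest named ratio was that of Itgad, the alphaD chain next to Itgax (chromosome 7, 128154376 to 128223816), in Ace+ monocyte-like cells, with 127 CPM in WT against 35.9 in H2-Aa cit/cit (log2 ratio -1.83). Itgb5 had 78.3 and 42.5 CPM there (-0.88), and Itga9 235 and 147 CPM in macrophage-like cells (-0.67). Of 26 genes for integrin activation and adaptors, 20 to 22 were compared in a class. In resting cDC1-like cells 3 of 20 were past 1.5-fold lower and none higher, near the 16.4% of all genes past it; named were Cytip, which binds cytohesin and restrains beta2 adhesion, from 326 to 160 CPM (-1.02), and Lims1, from 358 to 223 (-0.69). Proliferating cDC1-like cells had 2 of 20 higher, Fyb (0.75) and Zyx (0.93), and 1 lower, against 17.2% of all genes. In Ace+ monocyte-like cells 5 of 21 were lower and none higher, no larger a share than the 23.8% of all genes; they include Rap1b, a small GTPase that activates integrins, from 1003 to 565 CPM (-0.83), its exchange factor Rasgrp2 (-1.02) and the kinase Ptk2b (-0.66). The other 8 classes had at most 2 past the fold.

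Of 13 integrin ligands, 1 to 3 were compared in a class. In mature, pDC-like, Ace+ monocyte-like and macrophage-like cells 1 was past 1.5-fold, lower in H2-Aa cit/cit, and elsewhere none. Of all genes compared, 11.9%, 17.8%, 23.8% and 28.5% were past it in these classes in either direction, so 1 gene in each is a description. Vcam1, the ligand of VLA-4, had 73.5 and 37.1 CPM in mature cells (-0.98), though it is also a gene of the macrophage gate. Cdh1, the E-cadherin that CD103 binds, had 100 and 58.1 CPM in pDC-like cells (-0.78), and F11r, a junctional ligand of LFA-1, 77.5 and 38.5 in macrophage-like cells (-1.01). Of 11 genes for TGF-beta and its latency, 4 or 5 were compared. In mature cells, where 11.9% of all genes compared were past 1.5-fold, 2 of 4 were past it higher. Tgfb1 had 70.5 CPM in WT against 120 in H2-Aa cit/cit (0.76), and Nrros, which anchors latent TGF-beta on myeloid cells, 193 and 293 (0.61). Nrros was also past 1.5-fold higher in proliferating cDC1-like (0.65) and pDC-like cells (0.64), where Tgfbr1 was lower (-0.68). Of all genes compared, 17.2% and 17.8% were past it in these classes. In resting cDC1-like cells 1 of 5 genes of this list was past it lower, against 16.4% of all genes.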

How the data were processed

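Spleen cells enriched for CD11c and sorted were sequenced as 3′ single-cell libraries. Per the submitters' processing notes, the authors made the deposited UMI counts with Cell Ranger 5.0.1 and mm10; Seurat is also named there. Here UMI counts were summed over cells of a class and divided by the class total to give CPM, UMIs per 1000000. Cells were gated by detected marker genes, with cuts set after marker counts had been seen. Members and gene lists were chosen with earlier results of these data known. All 10 members are named; similar genes are the 3 of highest Pearson r of log2 (CPM + 5), of which 1 is not reported here, and genes of other lists are named where past 1.5-fold at a mean of at least 50 CPM. Levels carry 95% exact Poisson intervals, ratios exact conditional binomial intervals and shares Clopper-Pearson intervals, which cover counting error only. Ratios were made for genes with a mean of at least 10 CPM. This step was tried on simulated Poisson counts, which hold no variation between mice or libraries and cannot speak to genotype differences. With 1 library per genotype no test was run. For shares, each cell was thinned to 1500 UMIs by its hypergeometric expectation, and shallower cells (734 WT, 958 H2-Aa cit/cit) were left out. Thinning to 3000 UMIs, used where stated, kept 5696 WT cells and 8446 of H2-Aa cit/cit. Doublets were not removed; an alternative left out 512 cells of WT and 1072 of the mutant library. Other alternatives were the mean over cells, thinned cells, median ratio scaling, stricter gates, clusters made without integrin genes, no cells over 10% mitochondrial UMIs, and minimums of 0 or 50 CPM. Python 3.11.15, numpy 2.4.6, pandas 2.3.3, scipy 1.17.1, matplotlib 3.10.9, scanpy 1.11.5, leidenalg 0.10.2 and igraph 0.11.9 were used.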

Additional observations from a re-analysis of the deposited data

Results flagged for a closer look

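Itgam and Itgal had log2 ratios of opposite sign in different cell classes. Itgam was higher in H2-Aa cit/cit in pDC-like cells (log2 ratio 1.13, from 13 and 22 UMIs) and lower in Ace+ monocyte-like cells (-0.67), where it stayed past 1.5-fold under 2 of 8 alternatives and turned to 0.074 in clusters. Itgal was higher in mature cells without cDC1 genes (0.92) and lower in Ace+ monocyte-like cells (-0.86), past 1.5-fold under 5 of 8 and 3 of 8 alternatives. The difference between the classes was not tested, since each genotype had 1 library.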

How the results depend on the processing

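No paired analysis was possible because each genotype had 1 library, and leaving out a replicate was not possible for the same reason. The Itgae and Itgb2 ratios of resting cDC1-like cells stayed past 1.5-fold under 8 of 8 alternatives (-2.05 to -1.73 and -1.04 to -0.78), and those of Itga4 and Itgav under 5 of 8 each. The number of members past 1.5-fold moved in the classes listed below, and moves in other classes are not all listed. The share of all genes past the fold under each alternative is not given here. These counts therefore have no background and are a description. With the mean over cells it was 2 in resting cDC1-like, 2 in other cDC2-like, 1 in mature, 0 in Ace+ monocyte-like and 2 in macrophage-like cells. With thinned cells it was 0 in mature, 0 in Ace+ monocyte-like and 2 in macrophage-like cells. With stricter gates it was 4 in proliferating cDC1-like, 0 in other cDC2-like, 2 in Ace+ monocyte-like and 4 in macrophage-like cells. In clusters, which had no proliferating cDC1-like one, it was 3 in Ccr2+ and 5 in other cDC2-like, 2 in proliferating cells without cDC1 genes, 1 in mature, 0 in Ace+ monocyte-like and 5 in macrophage-like cells. Itgav of resting cDC1-like cells, at 119 CPM in WT against 79.7 in H2-Aa cit/cit, was no longer past 1.5-fold in clusters. Without likely doublets the number of members was 0 in mature, 0 in pDC-like, 0 in Ace+ monocyte-like and 3 in macrophage-like cells. The Itgam ratio itself stayed past 1.5-fold under 8 of 8 alternatives in mature and in pDC-like cells (lowest 0.66 and 0.69). In the counts of 0 above for these 2 classes, Itgam was thus under the minimum of 10 CPM and not under 1.5-fold. With a minimum of 50 CPM the number of members was 1 in proliferating cDC1-like, 0 in mature and 0 in pDC-like cells. With no minimum it was 2 in Ccr2+, 2 in other cDC2-like, 2 in low-ribosomal and 2 in pDC-like cells. It was then 1 in proliferating cells without cDC1 genes. With no minimum, Itgam was also past 1.5-fold in resting cDC1-like (0.87) and proliferating cDC1-like cells (1.83). So were Itgb8 in mature (-0.72) and Itgae in Ace+ monocyte-like cells (-1.23). The counts at 50 CPM followed from the minimum alone, since the members that dropped out had means of 11.1 to 29.8 CPM and kept their ratios. In cells of 3000 to 15000 UMIs, an alternative chosen after seeing the data, the number was 4 in proliferating cDC1-like, 3 in pDC-like, 0 in Ace+ monocyte-like and 2 in macrophage-like cells. The direction turned for Itgae in proliferating cDC1-like cells of 3000 to 15000 UMIs (0.10) and, in clusters, Itgam in other cDC2-like (-0.19) and Ace+ monocyte-like cells (0.074). Causes were not tested. Median ratio scaling shifted ratios by at most 0.07.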
